A study of Mus musculus with 12 samples.

Results

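Mitochondrial fatty acid oxidation was followed through 10 genes whose products act on fatty acyl chains inside the mitochondrion or take up the electrons released from them, namely Cpt2, Acadvl, Acadl, Acadm, Acads, Hadha, Hadhb, Hadh, Acaa2 and Etfdh. They were chosen by gene symbol, and each symbol matched 1 of the 54532 mouse genes in the count table. Male mice had been injected in the tail vein at 10 weeks of age with an adeno-associated virus of serotype AAV8 and were then kept on a low-fat diet for 16 weeks. The hHKDC1 OE mice received AAV8-TBGp with full-length human HKDC1, a hexokinase gene, and the null mice received AAV8-TBGp without it, so both groups carried the vector and the diet. TBGp, the promoter of thyroxine-binding globulin, works in hepatocytes, so the transgene was aimed at the liver and not at fat. Liver and subcutaneous fat were sequenced, and each combination of tissue and vector has 3 libraries, which makes 12. The fat libraries are from 3 mice a group, and whether the liver libraries are from 3 mice, or from the same mice as fat, is not given in the sources used here.

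Long-chain fatty acids cross the inner mitochondrial membrane as carnitine esters, and carnitine palmitoyltransferase II, the product of Cpt2, turns them back into acyl-CoA in the matrix. Each turn of the oxidation spiral then takes a dehydrogenation, a hydration, a second dehydrogenation and a thiolytic cleavage, and releases acetyl-CoA. The first dehydrogenation is shared among enzymes of different chain length, with Acadvl for very long, Acadl for long, Acadm for medium and Acads for short chains. Hadha and Hadhb encode the α and β subunits of the mitochondrial trifunctional protein, which carries out the later steps on long chains, while Hadh (the hydroxyacyl-CoA dehydrogenase) and Acaa2 (the 3-ketoacyl-CoA thiolase) act on shorter ones. Etfdh encodes the oxidoreductase that passes the electrons of the acyl-CoA dehydrogenases to ubiquinone. In liver this pathway supplies energy and acetyl-CoA for ketone bodies during fasting, and in white fat it is a smaller use of fatty acids than storage and release.

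Libraries held 15496019 to 19954971 counts on genes, and the 10 genes together took 0.253% to 0.369% of them, with 1803 to 18600 counts per gene and library, so each had enough counts to be tested in every comparison. Mouse Hkdc1 had 0 to 8 counts in every library, and the human transgene was not analysed here, so the counts do not check the vector labels. The sample descriptions call hHKDC1 OE replicates 2 and 3 knockouts in both tissues, against their titles and treatment labels, and they were kept in the hHKDC1 OE group. Hepatocyte markers (10 genes such as Alb and Ttr) summed to 113900 to 116700 CPM in null liver and 74300 to 99820 CPM in hHKDC1 OE liver, where CPM are library-scaled counts (edgeR's TMM-scaled CPM, with the scaling made within a tissue). That sum was mostly Alb (mean 71230 CPM in null and 46250 CPM in hHKDC1 OE liver). Of the 10 markers 6 had a log2 fold change below 0 and 4 above it (Fga at 0.33, Fgb at 0.45, Fgg at 0.34 and Ahsg at 0.02), with a median of -0.12. Adipocyte markers (10 genes such as Adipoq and Plin1) summed to 23950 to 35460 CPM in fat. The fat libraries also held RNA of other cells. The 10 skeletal muscle markers, such as Acta1 and Ckm, summed to 19640 and 23990 CPM in null replicates 1 and 2 and 15900 CPM in hHKDC1 OE replicate 1, but to 549 to 2616 CPM in the other 3 fat libraries, with 1 marker at 0 in every library. Hepatocyte markers summed to 2644 to 8000 CPM in null and 782 to 2183 CPM in hHKDC1 OE fat. Markers of B cells summed to 2.48 to 4.33 CPM in null and 59.5 to 1042 CPM in hHKDC1 OE fat, those of T cells to 7.75 to 19.7 and 54.8 to 817.2 CPM, and those of macrophages to 243.6 to 520.5 and 739.7 to 1391 CPM. The largest macrophage marker was Lyz2 (mean 168.2 CPM in null and 613.2 CPM in hHKDC1 OE fat). Of the macrophage markers 8 had a log2 fold change above 0 in fat and 2 below it. In bulk tissue, fewer cells of a type and less RNA per cell cannot be told apart.

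The genes lie on 6 chromosomes, and 9 of the 10 deposited positions are those of the GENCODE annotation of GRCm38. The position of Acaa2, which is not, is left out. Acadl lies on chromosome 1 (66830839 to 66863277), Cpt2 on 4 (107903981 to 107923610) and Acadvl on 11 (70010183 to 70015411). Acadm (153922357 to 153944632), Hadh (131233419 to 131272101) and Etfdh (79603788 to 79629500) share chromosome 3, and Acads (115110299 to 115119346), Hadha (30118304 to 30155162) and Hadhb (30155248 to 30184593) share chromosome 5. Hadha and Hadhb stand head to head, with 85 bases between their starts in the deposited positions. The libraries do not keep strand, so reads where genes overlap can be lost or shared: Acadvl overlaps Dvl2 over 2119 bases (55 to 404 Dvl2 counts), Etfdh overlaps 4930579G24Rik over 422 bases (5 to 69 counts) and Gm37973 over 1289 bases (0 to 9 counts), Hadha overlaps Garem2 over 75 bases (0 to 2 counts), and Acadl overlaps the pseudogene Gm15793 over 495 bases (0 to 13 counts). The small RNA genes inside Acadvl, Acadl and Hadhb had 0 to 10 counts.

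Promoter windows of 300 bases, from RefSeq on GRCm38.p6 and running 5′ to 3′ on the strand of the gene, are shown for 3 genes. They are placed by the RefSeq start of each gene, which can differ from the deposited one. The Hadhb window (chr5:30155003-30155302, + strand) is shown because Hadha begins close by on the other strand, and the 85 bases between the deposited starts of both genes are in capitals. The RefSeq start of Hadha lies outside this window. The Acadm window (chr3:153944594-153944893, - strand) is shown for its copy of AGGTCA, the hexamer that nuclear receptors such as PPARα bind, read on the other strand as TGACCT and set in capitals. The Etfdh window (chr3:79628718-79629017, - strand) is shown for the palindrome in capitals, the element bound by the nuclear respiratory factor NRF1.
Hadhb: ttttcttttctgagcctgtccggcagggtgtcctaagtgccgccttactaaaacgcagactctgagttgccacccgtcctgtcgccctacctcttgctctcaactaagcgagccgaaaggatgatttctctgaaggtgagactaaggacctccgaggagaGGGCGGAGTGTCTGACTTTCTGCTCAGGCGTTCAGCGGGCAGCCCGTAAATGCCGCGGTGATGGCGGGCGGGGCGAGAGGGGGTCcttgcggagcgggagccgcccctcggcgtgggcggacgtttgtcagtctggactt
Acadm: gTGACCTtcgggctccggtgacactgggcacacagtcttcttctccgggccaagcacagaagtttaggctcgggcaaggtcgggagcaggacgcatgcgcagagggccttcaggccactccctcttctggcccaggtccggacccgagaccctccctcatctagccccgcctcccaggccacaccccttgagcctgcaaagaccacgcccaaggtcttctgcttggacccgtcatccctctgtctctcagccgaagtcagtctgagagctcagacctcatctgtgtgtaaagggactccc
Etfdh: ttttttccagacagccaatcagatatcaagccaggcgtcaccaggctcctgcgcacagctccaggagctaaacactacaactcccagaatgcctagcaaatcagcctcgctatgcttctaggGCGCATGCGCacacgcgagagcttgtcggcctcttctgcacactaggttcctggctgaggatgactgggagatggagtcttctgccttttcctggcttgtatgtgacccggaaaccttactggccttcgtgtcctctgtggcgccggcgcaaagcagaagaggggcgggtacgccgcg

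In the 9 windows searched on both strands, the direct repeat of PPAR elements, in which 1 base separates a pair of AGGTCA copies, was in 0, against 0.0396% of all 32851 promoter windows. The single hexamer AGGTCA, which is part of that repeat, was in 2 of the 9 (Acadm and Acadvl), against 16.3% of all windows. TCAAGGTCA, the element of the estrogen-related receptors, which overlaps AGGTCA, was in 0 of the 9 against 0.423%, and the NRF1 element, as spelled in capitals in the Etfdh window, was in 1 of the 9 (Etfdh) against 0.971%. A match is a description of these letters only.

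Levels were compared between genes as the deposited FPKM (fragments per kilobase of the deposited gene length, over 1 factor per library). The order of genes thus rests on those lengths. The factor is not the total of counts on genes. Hadha had 6307 counts and 62.53 FPKM in null liver replicate 1, and 5515 counts and 28.42 FPKM in null fat replicate 1. The totals of these libraries were 17117206 and 17738258 counts, so FPKM of liver and fat already hold a scaling between the tissues. In null liver Acaa2 stood highest, at 1019, 1075 and 994.9 FPKM, and the next, Acadl, had 199.4, 185.8 and 191.1 FPKM. Hadhb (42.6, 45.5 and 45.5 FPKM) and Etfdh (45.6, 49.2 and 42.5 FPKM) stood lowest and overlapped each other. The median FPKM of Acaa2 was 22.4 times that of Hadhb. Acaa2 had 17832 to 18476 counts over 1515 bases, and Hadhb 3246 to 3616 counts over 6595 bases. Between them the order of means was Acadm, Acads, Cpt2, Hadh, Acadvl and Hadha, and of the 9 pairs of neighbours in the whole order 4 did not overlap: Acaa2 and Acadl, Acadl and Acadm, Acadvl and Hadha, and Hadha and Etfdh.

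In hHKDC1 OE liver Acaa2 again led, and Hadhb was lowest, with 3 of the 9 neighbouring pairs apart and a 29.6-fold span of medians. In null fat the order began with Acadl (132.3, 164.3 and 129.7 FPKM), which stood above Acaa2 (111.7, 116.6 and 119.7 FPKM) with no overlap, and ended with Etfdh (13.9, 13.7 and 12.3 FPKM), a span of 9.69-fold. In hHKDC1 OE fat Acadl led and Etfdh was lowest too, with a span of 11.1-fold. The plot of FPKM by library shows all 10 genes in the 4 groups.

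**Figure D1:**
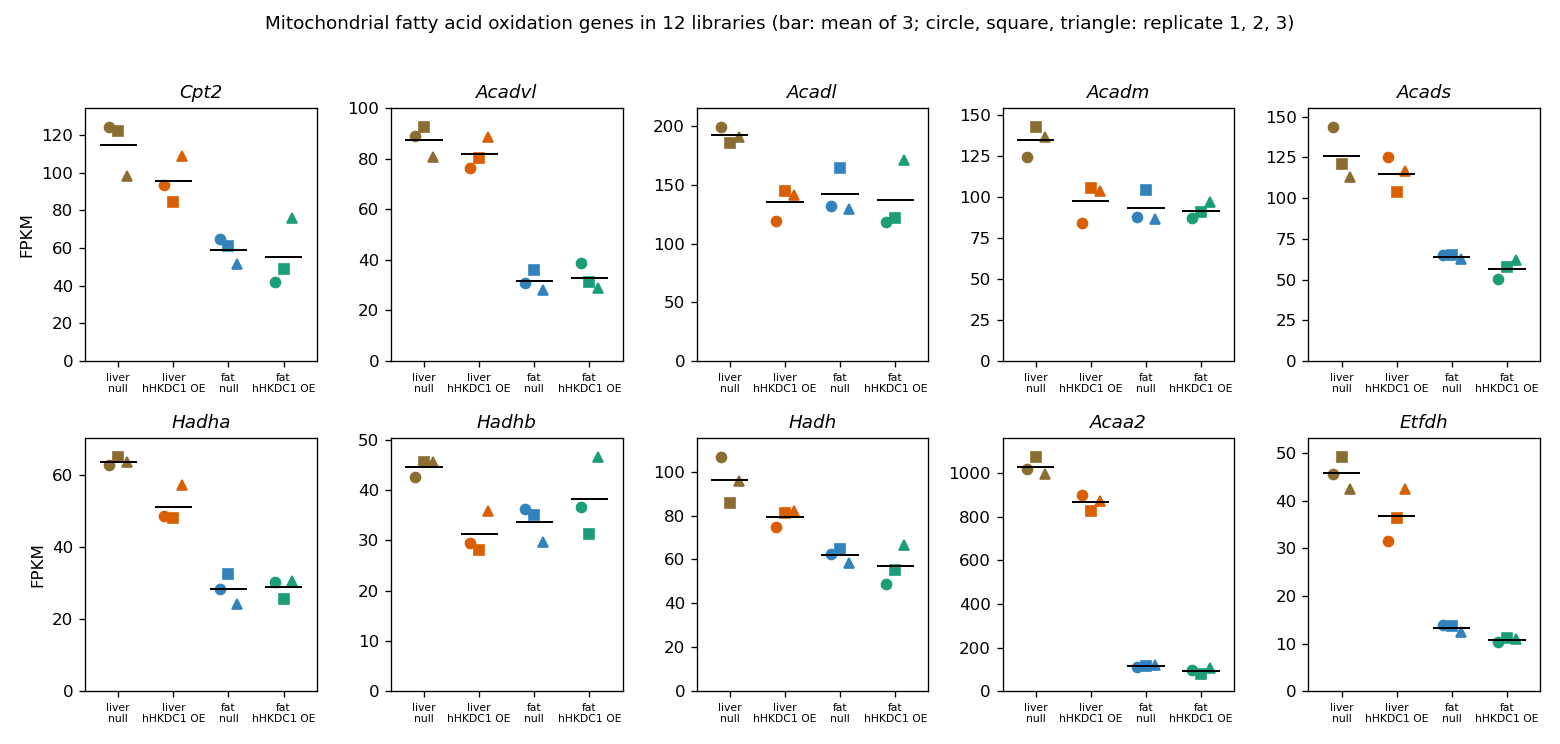
FPKM of each gene (y axis from 0, a scale of its own per panel) in the 4 groups of libraries on the x axis; points are single libraries, with circle, square and triangle for replicates 1, 2 and 3, and the bar is the mean of 3. The Acaa2 points lie between 994.9 and 1075 FPKM in null liver and between 78.8 and 119.7 in fat, whereas Hadhb lies between 28.1 and 46.6 in all 12 libraries.

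The first comparison asked how the genes stood in the liver, the tissue in which the transgene was driven. All 10 genes had a log2 fold change below 0 in hHKDC1 OE liver (Acadvl was at 0.01 when scaled by library size alone), with a median of -0.26 against 0.01 over all genes tested and a range from -0.48 to -0.06. None passed an adjusted p of 0.05 in the quasi-likelihood test of edgeR with the Benjamini-Hochberg adjustment, as none of the 13351 genes tested did (0%), and 3 of the 10 had an unadjusted p under 0.05 (Hadhb, Acadl and Acadm), against 6.94% of all genes. In 7 of the 10 the hHKDC1 OE libraries all lay below the null libraries, against 6.18% of all genes. Since the genes share libraries and go up and down together, these counts are not 10 separate observations. Over all genes DESeq2 called 94 and the edgeR fit with the replicate number as a block called 17, with 0 of the 10 in either.

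Cpt2, which restores acyl-CoA in the matrix, had 212.3, 215.8 and 175.5 CPM in null liver and 165.0, 154.6 and 194.6 CPM in hHKDC1 OE liver, so that hHKDC1 OE replicate 3 stood above null replicate 3 and the groups overlapped. Its log2 fold change was -0.23 with a standard error (SE) of 0.16. Among the acyl-CoA dehydrogenases, the groups were apart for long and medium chains and overlapped for very long and short chains. Acadl had 285.4, 275.2 and 286.3 CPM in null and 176.5, 222.1 and 211.8 CPM in hHKDC1 OE liver, a log2 fold change of -0.47 (SE 0.15, edgeR adjusted p = 0.5525). Acadm had 348.0, 413.3 and 399.6 CPM in null and 243.1, 314.8 and 304.3 CPM in hHKDC1 OE liver, a log2 fold change of -0.43 (SE 0.16, edgeR adjusted p = 0.6306). In both, hHKDC1 OE replicate 1 was the lowest of the 6 libraries.

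Acadvl had 170.7, 184.0 and 162.0 CPM in null and 151.6, 164.6 and 178.7 CPM in hHKDC1 OE liver, and its log2 fold change of -0.06 (SE 0.14) was the smallest of the 10. Acads had 232.8, 203.4 and 191.3 CPM in null and 209.1, 179.5 and 198.3 CPM in hHKDC1 OE liver, a log2 fold change of -0.10 (SE 0.15). In both genes the spread between replicates was larger than the difference between the groups.

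The subunits of the trifunctional protein were lower in every hHKDC1 OE liver library than in every null library. Hadha had 389.6, 418.3 and 413.4 CPM in null and 311.4, 318.8 and 372.5 CPM in hHKDC1 OE liver, a log2 fold change of -0.28 (SE 0.15, edgeR adjusted p = 0.7718). Hadhb had 200.5, 221.8 and 224.2 CPM in null and 143.6, 141.4 and 177.2 CPM in hHKDC1 OE liver, a log2 fold change of -0.48 (SE 0.15, edgeR adjusted p = 0.5525), the furthest from 0 of the 10. On the linear scale Hadhb stood at 0.715 times and Hadha at 0.821 times its null level.

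Of the enzymes of shorter chains, Acaa2 had 1101, 1204 and 1126 CPM in null and 1006, 957 and 992 CPM in hHKDC1 OE liver, a log2 fold change of -0.22 (SE 0.15), with the groups apart. Hadh had 378.8, 315.9 and 355.6 CPM in null and 274.7, 308.3 and 306.3 CPM in hHKDC1 OE liver, a log2 fold change of -0.24 (SE 0.15). Etfdh, the exit for the electrons, had 244.0, 272.9 and 238.5 CPM in null and 174.3, 209.0 and 238.2 CPM in hHKDC1 OE liver, a log2 fold change of -0.28 (SE 0.16). The groups of Hadh and Etfdh did not overlap, but for Etfdh the highest hHKDC1 OE library (238.2 CPM) and the lowest null library (238.5 CPM) were nearly level.

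Summed over the 10 genes, null liver had 3563, 3724 and 3573 CPM and hHKDC1 OE liver 2855, 2970 and 3174 CPM. The lowest value of a gene in liver was in hHKDC1 OE replicate 1 for 6 genes and replicate 2 for 4, and the highest was always in a null library. The summed hepatocyte markers, mostly Alb, stood at 99820 CPM in hHKDC1 OE replicate 1, 89990 in replicate 2 and 74300 in replicate 3, and 0 of the 10 markers passed the test, with 6 below and 4 above 0. Macrophage markers summed to 179.9 to 301.1 CPM in null and 283.5 to 573.7 CPM in hHKDC1 OE liver, highest in replicate 1, and 0 of those 10 passed. The part of either marker list in the result was not tested. Without the libraries described as knockouts, which leaves hHKDC1 OE replicate 1 alone against 3 null libraries, the median log2 fold change of the 10 genes was -0.37, in a fit whose spread comes from the null libraries alone. Without hHKDC1 OE replicate 1 it was -0.22, with 0 of the 10 past the test.

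In subcutaneous fat, which the transgene promoter does not target, 5 of the 10 genes had a log2 fold change above 0 and 5 below it, with a median of -0.02 against -0.04 over all genes and a range from -0.26 to 0.24. None of the 10 passed, as none of the 16380 genes tested did (0%), in the quasi-likelihood test of edgeR with the Benjamini-Hochberg adjustment. None had an unadjusted p under 0.05, against 17.7% of all genes. DESeq2 called 1446 genes in fat and 0 of the 10. In 2 of the 10, Acaa2 and Etfdh, all hHKDC1 OE libraries lay below all null libraries, against 10.2% of all genes.

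Acaa2 had 228.7, 243.3 and 239.5 CPM in null fat and 209.0, 158.9 and 228.0 CPM in hHKDC1 OE fat, a log2 fold change of -0.26 (SE 0.18, edgeR adjusted p = 0.467). Etfdh had 140.9, 141.3 and 122.1 CPM in null and 111.2, 111.4 and 117.4 CPM in hHKDC1 OE fat, a log2 fold change of -0.25 (SE 0.13, edgeR adjusted p = 0.36). These were the only 2 genes with groups apart in both tissues, lower in hHKDC1 OE each time.

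Hadhb had 323.1, 318.9 and 257.6 CPM in null and 347.3, 273.9 and 440.5 CPM in hHKDC1 OE fat, a log2 fold change of 0.24 (SE 0.22), the highest of the 10 in fat. Its partner Hadha had 335.3, 390.4 and 278.6 CPM in null and 381.4, 295.2 and 382.3 CPM in hHKDC1 OE fat, a log2 fold change of 0.08 (SE 0.20). In both the groups overlapped, and the spread between libraries of 1 group was larger than the difference.

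Among the dehydrogenases, Acadl had 358.3, 453.9 and 343.4 CPM in null and 342.3, 323.7 and 491.8 CPM in hHKDC1 OE fat, a log2 fold change of 0.00 (SE 0.23). Acadm, Acadvl and Acads had log2 fold changes of 0.03, 0.11 and -0.12 (SEs 0.18, 0.18 and 0.15), all with overlapping groups. Cpt2 had 209.1, 200.6 and 163.2 CPM in null and 143.5, 155.0 and 260.5 CPM in hHKDC1 OE fat, so hHKDC1 OE replicate 3 was the highest and replicates 1 and 2 the lowest of the 6. Hadh showed a log2 fold change of -0.07 (SE 0.19) with the groups overlapping.

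The highest fat library was null replicate 2 for 5 genes, hHKDC1 OE replicate 3 for 4 and hHKDC1 OE replicate 1 for 1. The sum over the 10 genes was 2791, 3094 and 2525 CPM in null and 2691, 2442 and 3257 CPM in hHKDC1 OE fat. Muscle RNA was high in null replicate 2 but low in hHKDC1 OE replicate 3, and markers of brown fat (8 genes such as Ucp1 and Cidea) summed to 139.4 to 270.9 CPM in null and 174.8 to 431.5 CPM in hHKDC1 OE fat, highest in replicate 1. Of these 8 markers 5 had a log2 fold change above 0 and 3 below it (median 0.37), and 0 passed. Kcnk3 had the largest mean of them in null fat, 84.6 CPM. Without the 3 libraries high in muscle markers the median log2 fold change was 0.13 and none of the 10 passed, in a fit that rests on 1 null and 2 hHKDC1 OE libraries and assumes that the lone library varies like the others. The part of muscle, brown fat, lymphoid or hepatocyte RNA in these values was not tested. The plot of log2 fold changes by gene sets both tissues side by side.

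**Figure D2:**
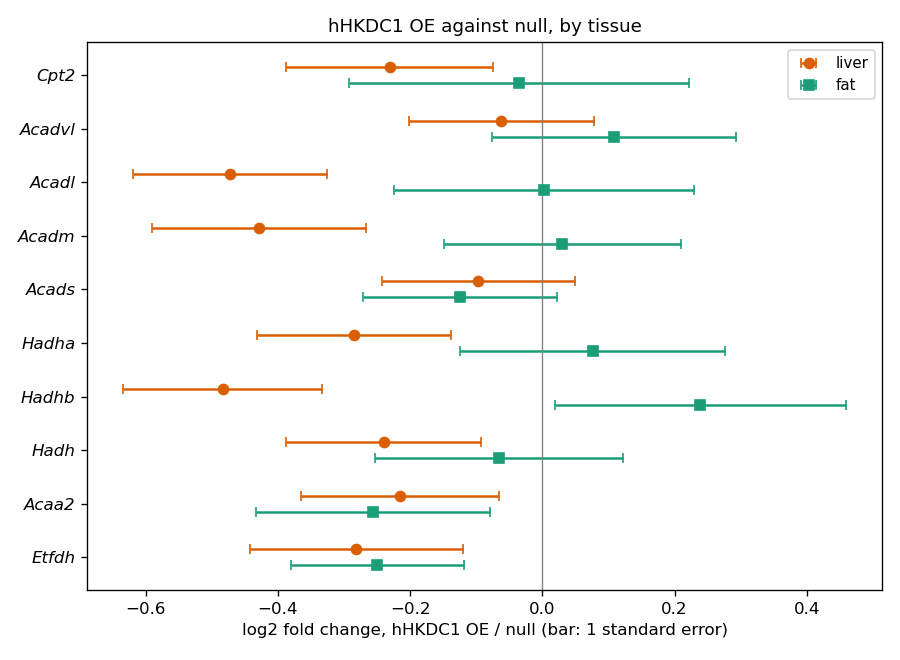
Log2 fold change of hHKDC1 OE against null on the x axis for each gene on the y axis, in liver (circles) and fat (squares). Bars are 1 standard error, worked out from the edgeR test statistic. The liver points lie between -0.48 and -0.06 and the fat points between -0.26 and 0.24, with the widest gap between the tissues at Hadhb.

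Whether the effect of the vector differed between the tissues was asked with an interaction term in a fit of the 12 libraries. The difference, fat minus liver, was above 0 for all 10 genes in the main fit, with a median of 0.27 against 0.03 over all genes. Acaa2 turned below 0 with upper-quartile scaling, and both Acaa2 and Acads with DESeq2. With 1 library left out under TMM, values also reached -0.22 for Acaa2, -0.18 for Acads, -0.19 for Cpt2, -0.11 for Etfdh, -0.05 for Acadvl and -0.04 for Hadh. None of the 10 passed, nor did any of the 17070 genes tested (0%), in the quasi-likelihood test of edgeR with the Benjamini-Hochberg adjustment, and DESeq2 called 497 genes and none of the 10. Hadhb had the furthest difference, 0.80 (SE 0.28, edgeR adjusted p = 0.2547), and was the 1 gene of the 10 with an unadjusted p under 0.05, against 12.7% of all genes. Acadl and Acadm followed at 0.56 and 0.54 (SEs 0.28 and 0.25). Hadha stood at 0.44 (SE 0.26), Cpt2 at 0.28, Hadh at 0.26, Acadvl at 0.25 and Etfdh at 0.11. Acaa2 and Acads stood at 0.04 and 0.05, well within their SEs of 0.27 and 0.22. The median was 0.07 without hHKDC1 OE fat replicate 3 (all genes -0.12) and 0.03 without null fat replicate 3 (all genes -0.10), and 0.35 without the 3 fat libraries high in muscle markers (all genes -0.09).

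Between the tissues under the null vector, all 10 genes were lower in fat than in liver under TMM and passed an adjusted p of 0.05 in the quasi-likelihood test of edgeR with the Benjamini-Hochberg adjustment, against 64.3% of all genes that passed and 30.5% that passed and were lower. The median log2 fold change was -1.02, against 0.09 over the 15259 genes tested. Acaa2 stood furthest from 0, at -3.20 (SE 0.19, edgeR adjusted p = 6.363e-06), which is a level 9.21 times higher in liver. Etfdh followed at -1.84 (SE 0.15) and Acadvl at -1.51 (SE 0.16), while Hadhb at -0.46 (SE 0.16, edgeR adjusted p = 0.03271) and Acadl at -0.49 (SE 0.17, edgeR adjusted p = 0.03522) lay nearest to 0.

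The remaining 5 genes lay between these. Hadha had 62.5, 64.9 and 63.4 FPKM in null liver and 28.4, 32.5 and 24.2 FPKM in null fat, a log2 fold change of -1.22 (SE 0.18). Acads and Cpt2 stood at -1.03 and -1.01, and Hadh and Acadm at -0.69 and -0.58. In all 10 genes the null libraries of the tissues did not overlap on the scale of the fit, against 33.8% of all genes apart and lower in fat.

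The scaling bears on these calls. TMM assumes that most genes are alike between the libraries compared, and with library size alone the median of all genes moved from 0.09 to 0.98. On that scale 5 of the 10 passed. Acaa2 (-2.31), Etfdh (-0.95) and Acadvl (-0.63) were lower in fat, while Acadl (0.40) and Hadhb (0.43) were higher, each still below the median of all genes. Acadm (0.30) and Hadh (0.20) also lay above 0 without passing. With upper-quartile scaling, without a filter on low counts, or with at least 10 counts in every library, 7 of the 10 passed, all lower, and Acadl, Acadm and Hadhb did not. Leaving out 1 library at a time left 7 to 9 of the 10 past the test, and those that dropped out were again among Acadl, Acadm and Hadhb. Without the null fat libraries high in muscle markers, replicates 1 and 2, all 10 passed as lower again, with a median of -1.10, but that fit holds 1 fat library and takes its spread from the liver libraries alone, so these calls add no replicate check.

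With the hHKDC1 OE vector 6 of the 10 passed as lower in fat (Acaa2, Etfdh, Acadvl, Acads, Hadha and Cpt2), against 25.5% of all genes and 56.7% called in either direction. Acaa2 stood at -3.27 (SE 0.25) and Etfdh at -1.83 (SE 0.19), next to -3.20 and -1.84 under the null vector. Hadhb stood at 0.24 (SE 0.22), Acadl at -0.04 (SE 0.22) and Acadm at -0.15 (SE 0.20), and none of these passed; Acadl (0.18) and Acadm (0.06) lay above 0 with upper-quartile scaling. With library size alone, where the median of all genes moved from 0.12 to 1.11, Acaa2 (-2.26) and Etfdh (-0.83) passed as lower in fat and Hadhb (1.24), Acadl (0.96) and Acadm (0.84) as higher. Hadh stood at -0.53 under TMM (edgeR adjusted p = 0.05499). Under TMM the groups were apart in 7 of the 10, lower in fat each time, against 30.4% of all genes. In FPKM, Hadhb had 29.5, 28.1 and 35.9 in hHKDC1 OE liver and 36.6, 31.2 and 46.6 in hHKDC1 OE fat. Whether these tissue differences depend on the vector is the interaction given above, which no gene passed. Without the fat library high in muscle markers, replicate 1, 5 of the 10 passed and Cpt2 did not, at -0.67. The plot of fat against liver shows both vectors.

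**Figure D3:**
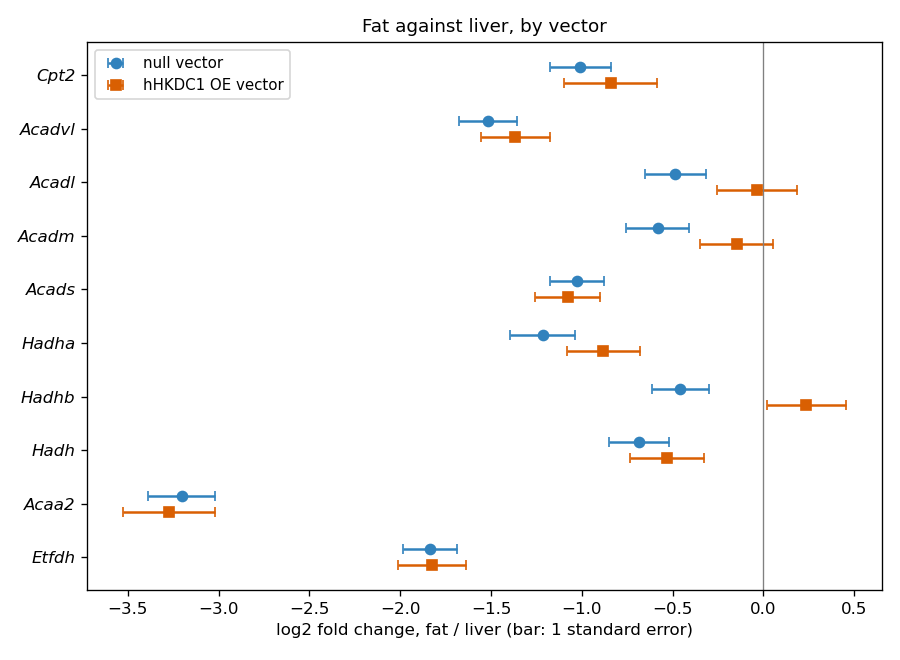
Log2 fold change of fat against liver on the x axis for each gene on the y axis, under the null vector (circles) and the hHKDC1 OE vector (squares). Bars are 1 standard error, worked out from the edgeR test statistic. Acaa2 lies at -3.20 under the null and -3.27 under the hHKDC1 OE vector, and Hadhb lies at -0.46 under the null and 0.24 under the hHKDC1 OE vector.

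Hadha and Hadhb are transcribed away from a shared stretch and their products form 1 complex, so their counts were also set against each other within each library, a ratio that no scaling of libraries can change. The ratio of Hadha to Hadhb counts was 1.943, 1.886 and 1.844 in null liver and 2.168, 2.254 and 2.102 in hHKDC1 OE liver. Every hHKDC1 OE liver library thus lay above every null library, with means of 1.891 ± 0.0497 and 2.175 ± 0.0762 (SD, n = 3, exact two-sided permutation p = 0.1, the smallest that 3 libraries against 3 can give). Taken within the 3 liver pairs of like number, the ratio was higher in hHKDC1 OE in 3 of 3 by a mean of 0.284 (exact two-sided paired permutation p = 0.25, the smallest that 3 pairs can give). In fat the ratio was 1.038, 1.224 and 1.081 in null and 1.098, 1.078 and 0.868 in hHKDC1 OE libraries, and the groups overlapped (exact two-sided permutation p = 0.5 with n = 3).

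The ratio was lower in all 6 fat libraries than in all 6 liver libraries. These are ratios of counts and not of transcripts, since the genes differ in length (8730 bases for Hadha and 6595 for Hadhb in the deposited table). The same ratio for Acadm and Acadl, the dehydrogenases of medium and long chains, was 1.219 to 1.502 in null liver, 1.377 to 1.437 in hHKDC1 OE liver, 1.244 to 1.308 in null fat and 1.111 to 1.459 in hHKDC1 OE fat, and overlapped between vectors in both tissues. Both ratios were chosen after values had been seen.

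**Figure D4:**
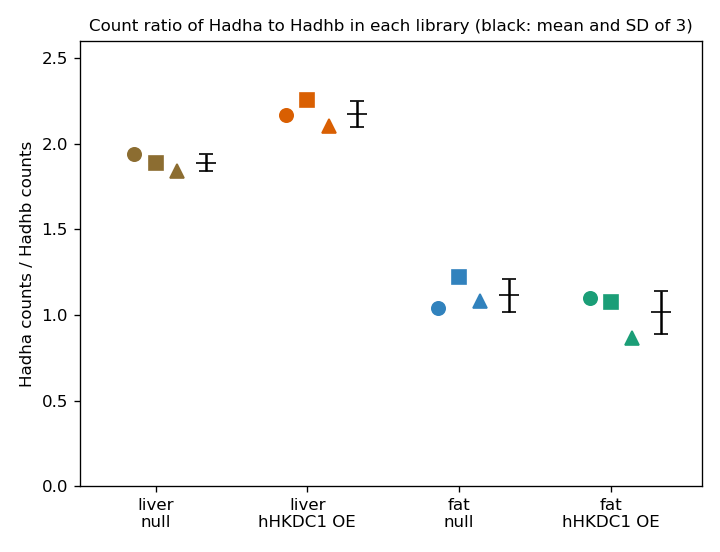
Ratio of Hadha to Hadhb counts (y axis from 0) in each library of the 4 groups on the x axis; coloured points are libraries, and the black mark and bar are the mean and SD of 3. The liver points lie between 1.844 and 2.254 and the fat points between 0.868 and 1.224, with the hHKDC1 OE liver points above the null liver points.

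The rest of the pathway was described through 5 further lists and a pair of ketone body genes. Of the 13 genes of fatty acid activation, entry and the control of entry by malonyl-CoA (the entry genes), 11 were tested in liver. All 11 had a log2 fold change below 0 (median -0.33), with 0 past the test. They hold Acaca (-0.20) and Acacb (-0.28), which make malonyl-CoA and so act against entry. Crat, the carnitine acetyltransferase, stood lowest at -0.97 (SE 0.21, edgeR adjusted p = 0.374) and Mlycd, which removes the malonyl-CoA that inhibits entry, highest at -0.07. Cpt1a, the carnitine palmitoyltransferase that controls entry in liver, showed a log2 fold change of -0.30 (SE 0.18) in liver and -0.70 (SE 0.18, edgeR adjusted p = 0.137) in fat, where the groups were apart. Cpt1b, its muscle form, had 0 to 10 counts and was not tested. In fat 7 of 12 tested entry genes were below 0, from Acsl6 at -2.04 (SE 1.66) to Cpt1c at 0.31. Acsl6 was near the floor, with 0 to 71 counts in null and 0 to 36 in hHKDC1 OE fat.

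Of 18 other mitochondrial oxidation enzymes, 16 lay below 0 in liver (median -0.24) and 14 in fat (median -0.18), with 0 past the test in each. In liver they ran from Acot2, an acyl-CoA thioesterase, at -1.61 (SE 0.43, edgeR adjusted p = 0.4994) to Acad12 at 0.14, and in fat from Acad11 at -0.41 to Etfb, a subunit of the electron transfer flavoprotein, at 0.37. Of 14 peroxisomal oxidation genes 12 lay below 0 in liver (median -0.34) and 10 in fat (median -0.33), again with 0 past the test. Ehhadh, the peroxisomal bifunctional enzyme, had 375.0 ± 27.7 CPM in null and 196.5 ± 50.1 CPM in hHKDC1 OE liver (SD, n = 3), which is -0.93 on the log2 scale (SE 0.20, edgeR adjusted p = 0.3553), and Acox3 stood highest at 0.14. In fat this list ran from Acaa1b at -1.46 (SE 0.45) to Ehhadh at 0.23. All 10 hepatocyte markers were below 0 in fat too (median -1.42), and the part of hepatocyte RNA in the fat values of these lists was not tested.

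Oxct1, which uses ketone bodies, stood at 0.21 in liver, and Bdh1, which makes the ketone body hydroxybutyrate, at -1.27 (SE 0.46) in fat, and neither passed. Among 18 genes of the citrate cycle, mitochondrial channels and protein import, 17 lay below 0 in liver (median -0.12, with Fh1 highest at 0.05) and 13 in fat (median -0.10, from Vdac1 at -0.51 to Tomm40 at 0.10), with 0 past the test.

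Of 14 regulators, which are transcription factors and cofactors besides the mitochondrial deacetylase Sirt3, 7 lay below 0 in liver (median -0.05). In fat 11 did (median -0.18), and none passed in either tissue. Lpin1, which coactivates PPARα and also acts in lipid synthesis, had 824.9 ± 134.8 CPM in null and 328.9 ± 127.8 CPM in hHKDC1 OE liver (SD, n = 3), which is -1.33 on the log2 scale (SE 0.27, edgeR adjusted p = 0.3549), with groups apart. In fat it had 868.9 ± 131.6 and 361.6 ± 85.8 CPM (SD, n = 3), which is -1.26 on the log2 scale (SE 0.24, edgeR adjusted p = 0.1328), and was named after its values were seen. Ppara, the fatty acid receptor, stood at -0.40 (SE 0.15) in liver and -0.31 (SE 0.30) in fat, and Ppargc1a at -0.35 and -0.21. The list ran up to Ppargc1b at 0.66 (SE 0.28) in liver, and in fat from Esrrb at -1.84 (SE 0.85) to Nrf1 at 0.51. Esrrb was near the floor in fat, with 6 to 29 counts in null and 3 to 11 in hHKDC1 OE libraries. The plot of the lists shows each gene of the 5 lists beside the 10 enzymes.

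**Figure D5:**
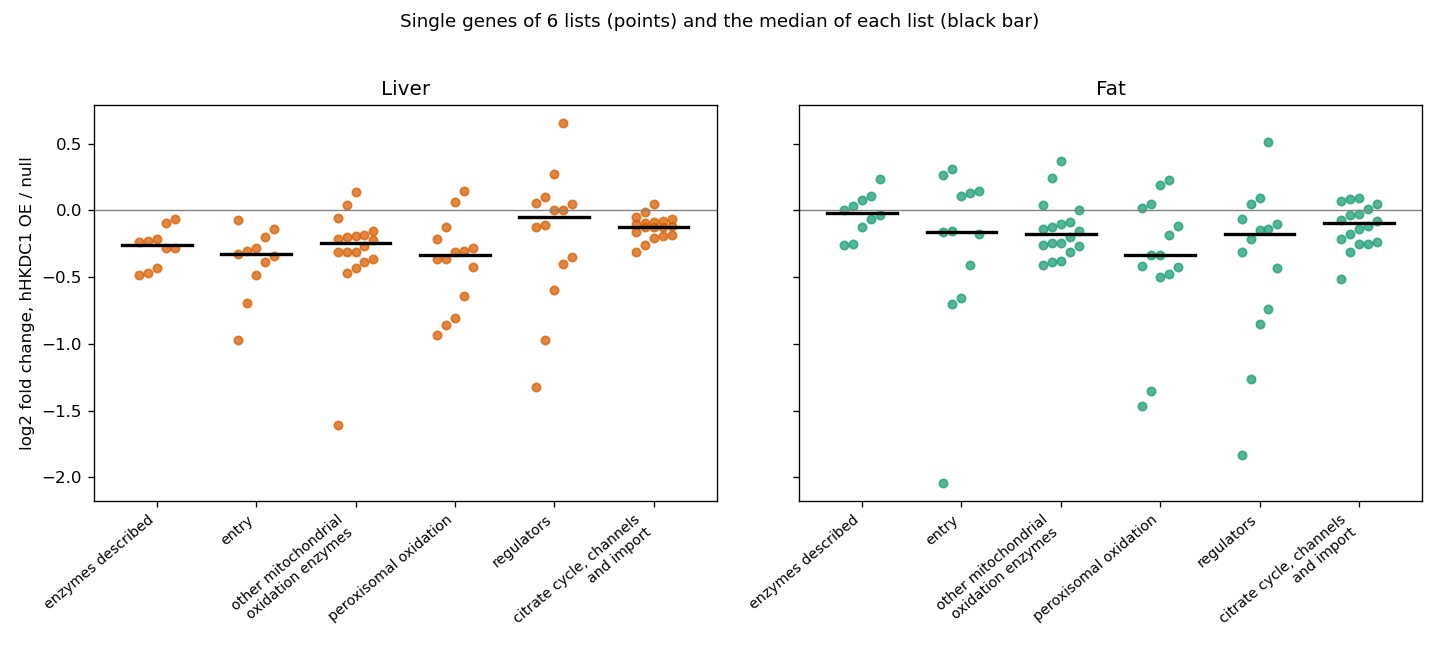
Log2 fold change of hHKDC1 OE against null (y axis) for each tested gene of 6 lists on the x axis, in liver (left) and fat (right); points are genes and the black bar is the median of the list. In liver the medians lie between -0.34 and -0.05, and in fat the median of the 10 enzymes is -0.02 and those of the other lists lie between -0.33 and -0.10.

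Under the null vector the same lists were read against the 64.3% of all genes called between the tissues, with 30.5% called as lower in fat. The numbers called in either direction among the entry genes (8 of 12), the regulators (9 of 14) and the citrate cycle, channel and import genes (11 of 18) were near that share and are no result about those lists. Of the 12 tested entry genes 5 passed as lower in fat, among them Acsl5 (-3.45) and Cpt1a (-3.07). As higher passed 3, among them Acaca (1.65), which makes malonyl-CoA, and Crat (1.52). Of the 18 other mitochondrial oxidation enzymes 13 passed as lower, led by Eci2 (-2.31) and Hsd17b10 (-2.26), and 2 as higher, Acot9 (3.24) and Acad12 (0.78). Of the 14 peroxisomal genes 11 passed as lower, led by Acox2 (-5.61) and Acaa1b (-4.80), and Abcd2, a peroxisomal transporter, passed as higher (5.15).

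Of the ketone body genes only Bdh1, lower in fat (-5.10), and Oxct1, higher (5.80), are given, which is no tally of such genes. Of the 18 citrate cycle, channel and import genes 8 passed as lower, led by Suclg2 (-2.63) and Fh1 (-1.70), and 3 as higher, led by Idh3a (2.24) and Cs (1.17). Of the 14 regulators 5 passed as lower, led by Ppara (-3.87) and Sirt3 (-2.85), with Ppargc1a at -1.34, and 4 as higher, led by Nrip1 (3.51) and Pparg (3.21). All these values are log2 fold changes under TMM, in which the median of all genes was 0.09, and other scalings of the further lists were not run.

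Across the 6 libraries of a tissue, most pairs of the 10 genes varied in the same direction. Of 45 pairs, 44 had a positive Pearson correlation of log2 CPM in liver (median 0.70) and 39 in fat (median 0.54). The points of a tissue share 2 vector groups and 1 scaling, and no test was made. Among the genes whose pattern was most like the mean of the 10, taken over genes with a mean of at least 10 CPM, were Mtmr4 (r = 0.997), Gm13910 (0.994), Ccnt1 (0.986) and Ybx3 (0.970) in liver, where 69 of 7371 genes exceeded 0.9. In fat they were Gtpbp10 (0.986), Ints6 (0.985), Rad17 (0.981), Mrpl55 (0.981) and Fdft1 (0.979), where 113 of 9959 genes exceeded 0.9. No gene is named in both tissues.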

How the data were processed

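RNA was sequenced from liver and subcutaneous fat, with 3 libraries for each tissue and vector, and 12 columns of counts and 12 of FPKM were used. The authors deposited counts per gene, made with STAR 2.5 and HTSeq 0.6.1 per the submitters' processing notes, from libraries that do not keep strand. The methods name a human reference, while the identifiers and positions deposited are those of mouse (GRCm38). The FPKM values deposited by the authors are those counts over gene length and one factor per library, with 100% of the values above 0 within 1% of that. Columns with the authors' own fold changes and p-values, group means and the separate tables of comparisons were not used.

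Counts were tested with edgeR 4.0.16 (TMM scaling, filterByExpr, quasi-likelihood test, Benjamini-Hochberg adjustment over all genes, threshold 0.05) in R 4.3.3, within each tissue, as a vector by tissue interaction over 12 libraries, and between tissues within each vector. CPM were scaled by TMM within a tissue. Standard errors are not an output of the quasi-likelihood test. They were taken as the absolute log2 fold change over the square root of its F statistic. The script was tested on simulated data. Alternatives were DESeq2 1.42.0, other scalings and filters, a replicate block, limma 3.58.1 on log2(FPKM + 1) and log2(FPKM + 0.1) with a mean FPKM of at least 0.1, and leaving out libraries. Leaving out the libraries described as knockouts, and those with at least 10000 CPM of muscle markers, was added after the data were seen. Replicate numbers are shared between groups, and what they mark is not given in the sources used here. Deviations of same-numbered libraries correlated at 0.231, 0.191 and 0.116 between the liver groups, and at 0.031, -0.143 and 0.039 in fat, so only the liver numbers met the rule for pairs (every correlation over 0.1). The main fits hold no block in any comparison, and the block was run as an alternative in each.

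The 10 enzymes and all lists were chosen with earlier results of these data known. All 10 were named in each comparison. From the other lists the largest rise and fall were named where no gene passed, and between tissues the 2 furthest up and down, besides Cpt1a, Cpt1b, Ppara and Ppargc1a. Nothing says that the liver libraries came from separate mice, so their p-values measure the spread between libraries. A promoter window and some genes that these rules would name are not reported here. Library depths of 15496019 to 19954971 counts gave at least 1803 counts for each of the 10 genes.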

Additional observations from a re-analysis of the deposited data

How the results depend on the processing

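None of the 10 enzymes passed the threshold for hHKDC1 OE against null in liver (16 alternatives), in fat (17) or in the interaction (22), and their median log2 fold change ranged from -0.37 to -0.19 in liver, -0.21 to 0.14 in fat and 0.03 to 0.45 in the interaction. Of the 850 fold changes refitted, 82 changed sign, and of those that kept their sign 34 lost and 2 gained a call. The number of all genes called was 0 in each of these comparisons and depended on the setting, and the cause was not tested. In liver it was 94 with DESeq2, 2 with library size alone, 327 without a filter, 17 with the replicate block, 3 and 5 with limma at pseudocounts of 1 and 0.1, 76 without the libraries described as knockouts, and 0 to 146 with 1 library left out (146 without hHKDC1 OE replicate 2). In fat it was 1446 with DESeq2, 803 without a filter, 168 with the replicate block, 1 with limma at a pseudocount of 1, 876 with 12 libraries in one fit, 1024 without the libraries described as knockouts, and 0 to 3251 with 1 library left out (3251 without hHKDC1 OE replicate 2 and 2 without null replicate 3). In the interaction it was 497 with DESeq2, 479 without a filter, 126 without the libraries described as knockouts, 258 without the fat libraries high in muscle markers, and 0 to 1211 with 1 library left out (1211 without hHKDC1 OE fat replicate 2). The replicate block changed no call of the 10 in liver, fat or the interaction. Between the tissues 8 of the 10 passed with the replicate block under the null vector, without Acadl and Hadhb, and 6 under the hHKDC1 OE vector. Same-numbered libraries of the tissues correlated at 0.272, 0.041 and 0.145, and at 0.021, 0.066 and 0.041, which does not meet the rule for pairs, and whether they share mice is not known here. Without the libraries described as knockouts the hHKDC1 OE arm of a tissue is 1 library, so the null libraries give the spread and the counts under that setting assume that the lone library varies like them.

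In liver Acadvl changed sign with library size alone (0.0061). In fat the values that changed sign were, for Cpt2, 0.1208 with library size alone, 0.0243 with 12 libraries in one fit and 0.3066 without the muscle-high libraries; for Hadh, 0.0906 with library size alone and 0.0953 without the muscle-high libraries; and for Acads, 0.0309 with library size alone. Acadl in fat was -0.0261 without a filter, -0.0123 with the replicate block, -0.0647 and -0.0652 with limma at pseudocounts of 1 and 0.1, and -0.1801 without the libraries described as knockouts, where Acadm was -0.0121. Acadm was -0.0188 and -0.0189 with limma. With 1 library left out, fat values ran from -0.2083 to 0.1041 for Acadl, -0.0546 to 0.0983 for Acadm, -0.0473 to 0.19 for Acadvl, -0.3544 to 0.1206 for Cpt2, -0.2154 to 0.0183 for Hadh and -0.0642 to 0.1795 for Hadha.

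In the interaction Acaa2 was -0.0693 with DESeq2, -0.0755 and -0.0781 with limma, -0.0091 with upper-quartile scaling and -0.2133 without the muscle-high libraries. Acads was -0.0478, -0.054, -0.0558 with DESeq2 and limma, -0.012 without the muscle-high libraries and -0.1844 without the libraries described as knockouts, where Cpt2 was -0.0572. With 1 library left out, interaction values ran from -0.2228 to 0.0559 for Acaa2, -0.1828 to 0.1142 for Acads, -0.0504 to 0.3156 for Acadvl, -0.1865 to 0.3799 for Cpt2, -0.1115 to 0.227 for Etfdh and -0.0393 to 0.3249 for Hadh.

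Between the tissues, scaling moved the most values, and library size alone turned the split of all genes called from 5163 higher and 4647 lower in fat to 9012 and 2286 under the null vector, and from 4931 and 4030 to 9679 and 1943 under the hHKDC1 OE vector. With library size alone 5 of the 10 passed under the null vector, with Acadl at 0.3991, Acadm at 0.2995, Hadh at 0.2035 and Hadhb at 0.4252. Under the hHKDC1 OE vector that scaling gave 0.9582 for Acadl, 0.8448 for Acadm, 0.1622 for Cpt2, 0.4632 for Hadh and 0.1208 for Hadha, while the median of all genes moved from 0.12 to 1.11. Acadl there was also 0.1127 with at least 10 counts in every library, 0.003 with limma at both pseudocounts, 0.0534 without a filter, 0.1751 with upper-quartile scaling, 0.0592 without the muscle-high library and -0.2187 to 0.0592 with 1 library left out, and Acadm was 0.003 with at least 10 counts and 0.0631 with upper-quartile scaling.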
